A study of Mus musculus with 6 samples.

Results

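Elastic fibers give the aortic valve and the vessel wall their recoil. Each fiber has a core of crosslinked elastin, laid down on a scaffold of microfibrils that are built from fibrillins and carry smaller associated glycoproteins. Fibulins and emilins sit between the core and the scaffold or at the fiber surface, and lysyl oxidases crosslink the elastin after assembly. In heart valves elastin is found mainly in the layer that faces the ventricle, and most of it is made before and shortly after birth.

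The 10 genes described here were chosen by name as the core and microfibril genes of this system, out of 46983 genes in the deposited table. They were Eln (elastin), Fbn1 and Fbn2 (fibrillins 1 and 2), Mfap2 and Mfap4 (microfibril-associated proteins), Fbln1, Fbln2, Fbln5 and Efemp2 (fibulins, the last also called fibulin-4) and Emilin1 (elastin microfibril interfacer 1). RNA-seq compared wild type C57BL/6J aortic valves of pups at postnatal day 2, called PND2, with those of adults aged 4 months, 3 libraries each. Valves of 5 to 6 mice were pooled for a library, so the spread within an age is a spread between pools, and the labels give no sex. The comparison asks how transcript levels of the growing valve differ from those of the adult valve.

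Levels are RPKM, which are reads scaled by the exonic length of a gene and by the library total. They can be compared between genes as far as the annotated length allows. That length joins all annotated exons. For Eln its 8098 bases include retained-intron intervals. The longest, of 2528 bases, averaged 365 RPKM at PND2 against 7592 for the gene, which lowers the RPKM of Eln. The level, share and place of Eln depend on this length. Library totals ran from 23810507 to 38994657, and every member except Fbn2 had at least 1494 reads in each library. Fold changes are differences of log2(RPKM + 0.1), 4 months against PND2, from limma over 25903 genes with Benjamini-Hochberg adjusted p-values. This scale understates the change of genes with low RPKM. A gene was called at an adjusted p under 0.05.

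Of the 10 genes, 6 were lower at 4 months, 1 was higher and 3 were not called. Eln, Fbn1, Fbn2, Fbln2, Fbln5 and Mfap2 fell, Fbln1 rose, and Efemp2, Emilin1 and Mfap4 did not pass the test. Among all genes tested, 21.1% were called lower and 14.7% higher, so many genes outside the elastic fiber also differed between the ages. With a fold over 2 required as well, 5 members were lower and 1 was higher, against 8.47% and 8.72% of all genes. For 7 members every library of one age lay above every library of the other, which was also so for 50.0% of all genes, and 3 members overlapped. The median log2 fold change was -0.95 over the 10 members and -0.14 over all genes tested. When each library was instead scaled by its median log2 ratio, the median of all genes moved to -0.02 and the calls moved from 3810 higher and 5463 lower to 4601 higher and 4129 lower, while the same 7 members were called in the same directions. With this scaling Fbn1 changed by -0.99 on the log2 scale, just short of a fold of 2. In whole valves, fewer cells of a type and less RNA per cell cannot be told apart.

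**Figure D1:**
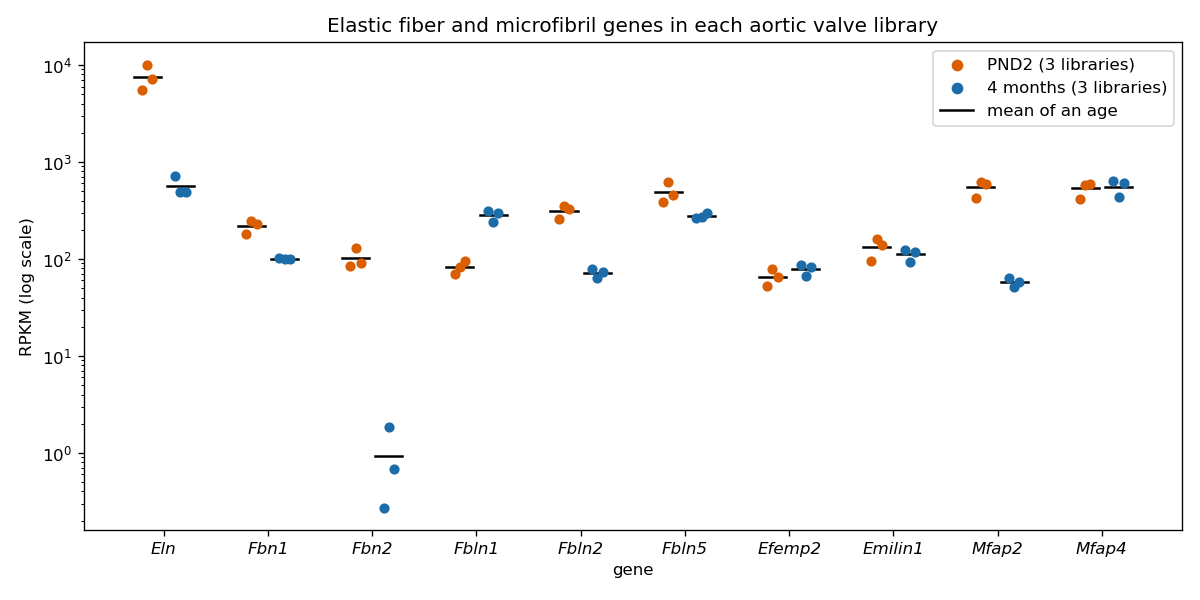
RPKM of the 10 genes in each library on a log axis, with PND2 in orange, 4 months in blue and a line at the mean of each age (3 libraries per age). Eln lies at 5521 to 10103 at PND2 and at 490 to 725 at 4 months, Fbn2 drops to between 0.271 and 1.83, and the points of Efemp2, Emilin1 and Mfap4 overlap between ages.

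**Figure D2:**
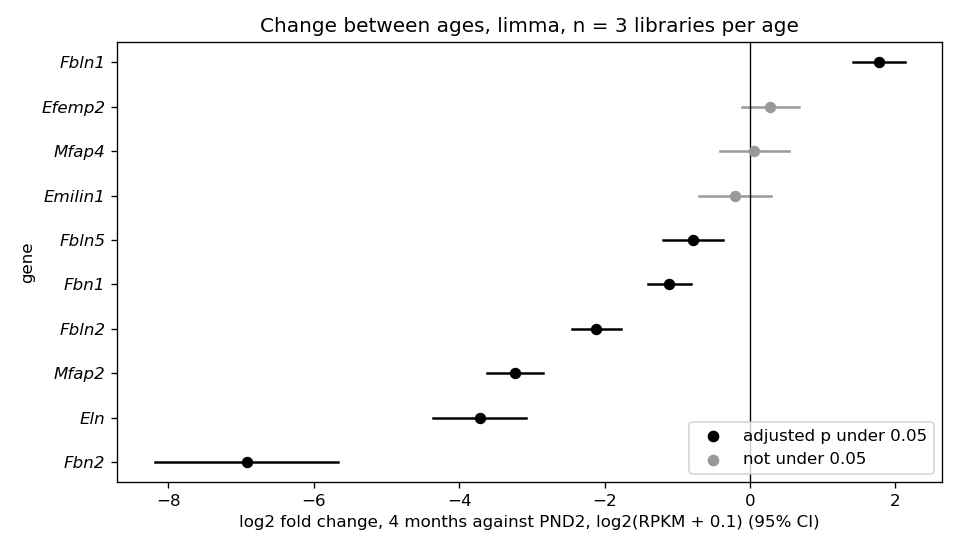
Log2 fold change of each gene, 4 months against PND2, on the log2(RPKM + 0.1) scale, with its 95% confidence interval from limma (3 libraries per age). Black marks an adjusted p under 0.05, grey the rest. Intervals of 6 genes lie below 0, that of Fbln1 lies above 0, and those of Efemp2, Mfap4 and Emilin1 span 0.

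Elastin is the main protein of the fiber core, secreted as soluble tropoelastin. Eln (ENSMUSG00000029675) lies on the minus strand of chr5:134702593-134747323 in mm10. It measured 5521, 10103 and 7153 RPKM in the 3 PND2 libraries and 725, 490 and 492 RPKM in the 3 libraries at 4 months. Every PND2 library was far above every 4 month library. The mean fell from 7592 ± 2322 to 569 ± 135 RPKM (SD, n = 3 each), which is 13.3-fold lower and -3.72 as a log2 fold change (SE 0.27, adjusted p = 0.000145). Among nuclear protein-coding genes ordered by mean RPKM, Eln stood at place 1 at PND2 and at place 96 at 4 months. It thus stayed the highest of the 10 members by mean at 4 months, where its range overlapped that of Mfap4.

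Because RPKM are per length, the members can be summed within a library, with the limit of the annotated length of Eln given above. Eln made up 73.7, 77.8 and 73.3% of the summed RPKM of the 10 genes at PND2 and 30.4, 27.1 and 23.1% at 4 months. No library of one age came near the other age. The mean share went from 75.0 ± 2.49% to 26.9 ± 3.64%, a difference of -48.1 percentage points (exact 2-sided permutation test, p = 0.1, the smallest that 3 libraries against 3 can give). The summed RPKM of the other 9 members went from 2484 ± 466 to 1539 ± 194.

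The antisense gene Gm43278 overlaps Eln on the opposite strand, and its only covered exon lies over the first exon of Eln. The library kit keeps strand, but whether the counting used it is not stated, so reads of the pair cannot be told apart. Gm43278 measured 560 ± 178 RPKM at PND2 and 39.4 ± 12.4 RPKM at 4 months. Its level was 7.37 ± 0.358% of that of Eln at PND2 and 6.85 ± 0.534% at 4 months (exact 2-sided permutation test, p = 0.2). Shared reads would hold this ratio steady, so the test cannot show whether Gm43278 itself changed with Eln.

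Fibrillins polymerize into the microfibrils on which elastin is deposited. Fbn1 (ENSMUSG00000027204, minus strand, chr2:125300594-125507993), the fibrillin mutated in Marfan syndrome, measured 181, 248 and 230 RPKM at PND2 and 103, 99.6 and 101 RPKM at 4 months. All 3 PND2 libraries were higher, and the adult libraries lay within a few RPKM of each other. The mean of 220 ± 35.1 RPKM fell to 101 ± 1.47, and the log2 fold change was -1.11 (SE 0.13, adjusted p = 0.000874). The gene Gm9913 overlaps Fbn1 on the opposite strand and measured 12.0 ± 4.27 and 4.30 ± 0.728 RPKM.

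Fbn2 (ENSMUSG00000024598, minus strand, chr18:58008623-58209926), the fibrillin best known from fetal and early postnatal tissue, measured 85.1, 129 and 90.2 RPKM at PND2. At 4 months it measured 0.271, 1.83 and 0.679 RPKM, from 106, 456 and 206 reads. The adult level was low but was read in every library, and on the log2 scale its SD between adult libraries, 1.19, was the largest of the 10 members. In the fit this was a fall of -6.92 on the log2 scale (SE 0.54, adjusted p = 0.000191). The ratio of means, 102 ± 24.1 over 0.926 ± 0.807 RPKM, was 110-fold and became 214-fold without 4 months replicate 2, the library with the highest adult value. That library also had the highest summed RPKM of 8 adipocyte markers at 4 months, 1439 against 347 and 329, and the highest of 10 cardiomyocyte markers, 8502 against 4671 and 5489. Their part in the Fbn2 level was not tested.

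Within the fibrillin pair, Fbn2 held 32.0, 34.2 and 28.1% of the summed RPKM at PND2 and 0.263, 1.80 and 0.668% at 4 months. Fbn2 was thus a sizeable part of the fibrillin level at PND2, and in the adult valve almost all of it was Fbn1. The mean share went from 31.5 ± 3.07% to 0.911 ± 0.797%, a difference of -30.5 percentage points (exact 2-sided permutation test, p = 0.1).

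Mfap2 encodes MAGP-1, a small glycoprotein bound along microfibrils. Mfap2 (ENSMUSG00000060572, plus strand, chr4:141010418-141015984) measured 425, 623 and 596 RPKM at PND2 and 63.0, 51.8 and 58.3 RPKM at 4 months. The ages were widely separated. The mean was 548 ± 108 RPKM and then 57.7 ± 5.63, or 9.49-fold lower (log2 fold change -3.23, SE 0.16, adjusted p = 3.5e-05).

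Mfap4, a fibrinogen-domain glycoprotein that binds microfibrils and tropoelastin, had a mean at PND2 close to that of Mfap2. Mfap4 (ENSMUSG00000042436, plus strand, chr11:61485431-61488900) measured 418, 583 and 599 RPKM at PND2 and 632, 431 and 606 RPKM at 4 months. The ages overlapped. The log2 fold change was 0.06 with a 95% confidence interval from -0.42 to 0.53 (adjusted p = 0.848), and its sign changed when single libraries were left out. Mapk7, on the opposite strand, overlaps Mfap4 and measured 16.6 ± 3.10 and 11.0 ± 0.701 RPKM. Of the summed RPKM of the 9 members other than Eln, Mfap2 held 22.0 ± 0.770% at PND2 and 3.76 ± 0.193% at 4 months, while Mfap4 held 21.5 ± 1.40% and 35.9 ± 2.77%.

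Of the 4 fibulins, 1 rose, 2 fell and 1 did not pass the test. Fibulin-1 is a matrix glycoprotein found in elastin-containing fibers and in basement membranes. Fbln1 (ENSMUSG00000006369, plus strand, chr15:85205949-85286535) measured 70.3, 82.5 and 95.6 RPKM at PND2 and 309, 239 and 301 RPKM at 4 months. It was the only member called higher in the adult valve, and its ages did not overlap. The mean of 82.8 ± 12.7 RPKM rose 3.42-fold to 283 ± 38.1 (log2 fold change 1.77, SE 0.15, adjusted p = 0.000252).

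Fibulin-2 binds fibrillin-1 and tropoelastin and is prominent in developing endocardial cushions and valves. Fbln2 (ENSMUSG00000064080, plus strand, chr6:91212455-91272540) measured 260, 352 and 329 RPKM at PND2 and 79.4, 64.1 and 73.0 RPKM at 4 months. Again the ages were apart, in the direction opposite to Fbln1. The mean of 314 ± 48.0 RPKM fell 4.35-fold to 72.2 ± 7.73 (log2 fold change -2.11, SE 0.14, adjusted p = 0.000102).

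Fibulin-5 brings tropoelastin to microfibrils and cells and is needed for elastic fiber assembly in mice. Fbln5 (ENSMUSG00000021186, minus strand, chr12:101746565-101819055) measured 385, 621 and 456 RPKM at PND2 and 266, 268 and 298 RPKM at 4 months. The lowest PND2 library was still above the highest adult one. From 487 ± 121 RPKM the mean fell to 277 ± 18.1 (log2 fold change -0.79, SE 0.18, adjusted p = 0.0130). This and the fall of Fbn1 were not called by a per-gene unequal-variance test on the same log2(RPKM + 0.1) values and genes, with Benjamini-Hochberg adjusted p = 0.140 for Fbln5 and 0.0710 for Fbn1.

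Fibulin-4, encoded by Efemp2, links lysyl oxidase to tropoelastin. Efemp2 (ENSMUSG00000024909, plus strand, chr19:5473973-5481853) measured 52.6, 78.3 and 64.6 RPKM at PND2 and 86.7, 66.9 and 81.8 RPKM at 4 months. The ages overlapped, and the log2 fold change of 0.28 had a 95% confidence interval from -0.11 to 0.67 (adjusted p = 0.237).

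Emilin1, which sits between elastin and microfibrils, was also not called. Emilin1 (ENSMUSG00000029163, plus strand, chr5:30913402-30921277) measured 94.2, 162 and 141 RPKM at PND2 and 124, 93.6 and 119 RPKM at 4 months. Its ages overlapped too, and the log2 fold change of -0.21 had a 95% confidence interval from -0.71 to 0.29 (adjusted p = 0.481). For Efemp2 and Emilin1 the intervals leave room for changes of up to about 0.7 on the log2 scale.

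Among the 4 fibulins, the share of Fbln1 in the summed RPKM went from 8.85 ± 1.45% at PND2 to 39.7 ± 2.09% at 4 months. Fbln2 held 33.2 ± 1.95% and then 10.1 ± 0.533%. Fbln5 was the largest fibulin at PND2 with 51.0 ± 3.36% and held 39.1 ± 3.05% at 4 months, beside Fbln1. The share of Efemp2 was 6.86 ± 0.0379% and 11.0 ± 0.626%. Each of these 4 differences had no overlap between ages (exact 2-sided permutation test, p = 0.1 each). The shares of 1 library add to a fixed total, so they are not independent of each other.

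By mean level, the PND2 order was Eln, Mfap2, Mfap4, Fbln5, Fbln2, Fbn1, Emilin1, Fbn2, Fbln1 and Efemp2. The ranges of Mfap2, Mfap4 and Fbln5 overlapped, as did those of neighbours from Emilin1 to Efemp2. At 4 months the order was Eln, Mfap4, Fbln1, Fbln5, Emilin1, Fbn1, Efemp2, Fbln2, Mfap2 and Fbn2. There the neighbours Eln and Mfap4, Fbln1 and Fbln5, Emilin1 and Fbn1, and Efemp2 and Fbln2 overlapped. Fbln1 thus went from place 9 to place 3, and Mfap2 from place 2 to place 9.

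Libraries of 1 age also differed across the members. PND2 replicate 1 was the lowest PND2 library for all 10 members, at 0.22 to 0.45 below the PND2 mean on the log2 scale, while its median over all genes tested was -0.05. PND2 replicate 2 was the highest PND2 library for 8 of them. At 4 months, replicate 1 was the highest library for 8 members and replicate 2 the lowest for 8. Mitochondrial genes held 8.998, 5.44 and 6.39% of gene reads at PND2 and 6.61, 9.60 and 8.09% at 4 months, so the library with low member levels had the highest mitochondrial share at either age. Its part in the levels was not tested. Leaving out any 1 library changed the limma call of no member, and it moved the ratio of means by over 1.5 times for Fbn2 alone.

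**Figure D3:**
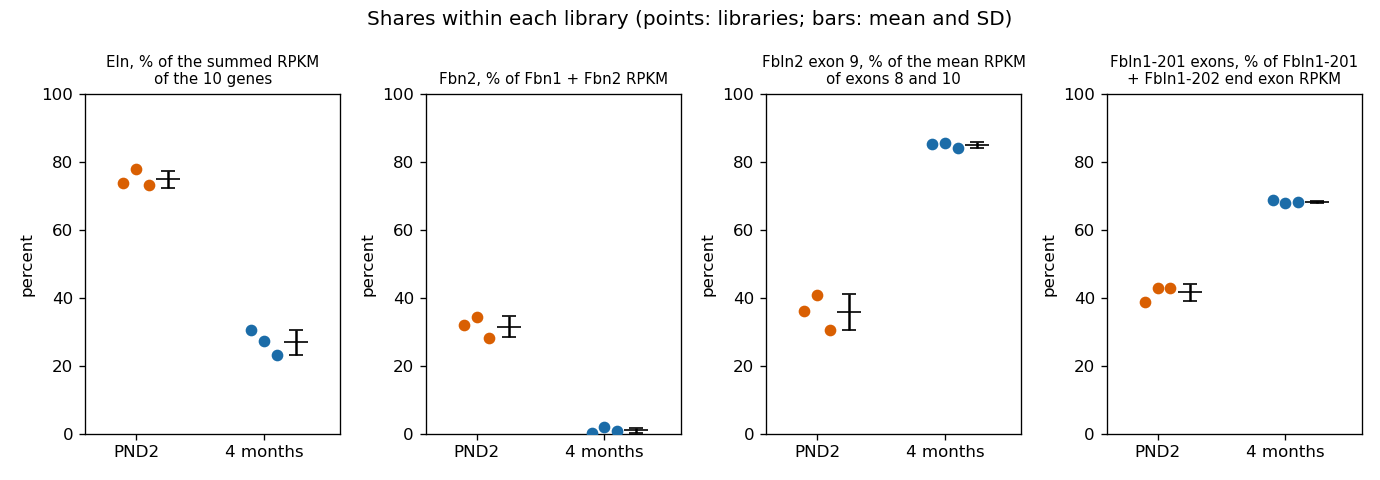
Percent in each library, with the mean and SD of each age beside the points (3 libraries per age): Eln in the 10 genes, Fbn2 in the fibrillin pair, Fbln2 exon 9 relative to its neighbouring exons, and exons 15 and 16 of Fbln1-201 in these plus exon 15 of Fbln1-202. Mean shares go from 75.0 to 26.9%, from 31.5 to 0.911%, from 35.8 to 85.0% and from 41.5 to 68.2%, with no overlap between ages.

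Exon values were deposited as well and show how the gene changes were spread along each gene. Of 379 annotated exons of the members, 374 passed the exon filter of 1 RPKM in 3 libraries, and they made up 316 different intervals. The fitted log2 change was below 0 in all intervals of Eln (45), Fbn1 (70), Fbn2 (65), Fbln2 (32), Fbln5 (11), Emilin1 (13) and Mfap2 (12). It was above 0 in all intervals of Fbln1 (20) and Efemp2 (36), and Mfap4 had 4 intervals below and 8 above 0. Many intervals of a gene overlap and share reads, as in Efemp2 and Eln, so these counts are not counts of independent values. In Eln the values ran from -3.96 to -2.22 around a median of -3.78, and in Fbn2 from -10.27 to -6.04 around -7.85. The adult Fbn2 values rest on 106 to 456 reads per library over 65 intervals, so single intervals had few reads.

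An exon was called when it differed from the other exons of its gene in both exon fits, limma's diffSplice on log2(exon RPKM + 0.1) and the same on voom weights. This held for 3 exons of the members, 1 each in Fbln2, Fbln1 and Eln, and for 0.237% of all exons tested.

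**Figure D4:**
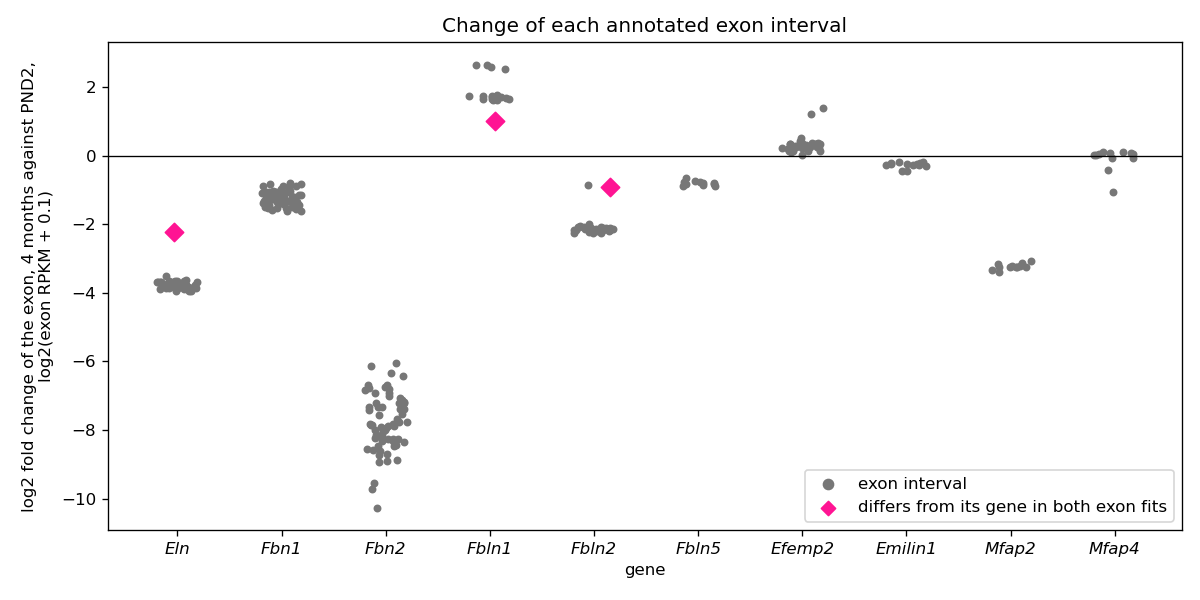
Log2 fold change of each exon interval, 4 months against PND2, on the log2(exon RPKM + 0.1) scale, with 1 point per interval and horizontal jitter for display. Pink diamonds mark the exons of Eln, Fbln1 and Fbln2 that differed from the rest of their gene in both fits. Intervals of Mfap2 lie between -3.40 and -3.07, whereas those of Fbn2, with few adult reads per interval, range from -10.27 to -6.04.

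The exon called under all alternatives was exon 9 of transcript Fbln2-201, which lies on the plus strand at chr6:91259630-91259770 of mm10. It is a coding exon of 141 bases, which is 47 codons, so the reading frame is the same with and without it. It is shown with its in-frame cysteine codons in capitals because it holds 6 of them. Calcium-binding EGF-like modules, the repeated units of fibulins, are folded by 6 cysteines in disulfide bonds. The sequence is from the GENCODE transcript.
Fbln2-201 exon 9: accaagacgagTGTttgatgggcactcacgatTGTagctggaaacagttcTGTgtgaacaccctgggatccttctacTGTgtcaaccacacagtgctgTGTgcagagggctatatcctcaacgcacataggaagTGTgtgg

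This exon measured 156, 247 and 182 RPKM at PND2 and 114, 95.6 and 98.7 RPKM at 4 months, whereas exon 10 measured 482, 632 and 611 RPKM and then 147, 117 and 125 RPKM. Exon 9 therefore fell less than the exons around it. Relative to the rest of Fbln2, its log2 change was 1.21 (limma, adjusted p = 8.95e-05) and 1.24 with voom weights (adjusted p = 0.000102), and its call held in each of the 9 alternatives. Exon 9 stood at 36.1, 40.9 and 30.5% of the mean RPKM of exons 8 and 10 at PND2 and at 85.2, 85.6 and 84.1% at 4 months. This ratio and the Fbln1 share below were chosen after the exon values were seen, and they are given as descriptions.

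Fbln1 is known to be spliced to alternative 3′ ends that give proteins with different C-terminal parts. The called exon was exon 15 of transcript Fbln1-202, its last, on the plus strand at chr15:85251445-85251885, which is coding up to base 85251796. The other end is made by exons 15 to 17 of transcript Fbln1-201, with exon 15 at chr15:85263259-85263401, exon 16 at chr15:85265250-85265381 and exon 17, its last, at chr15:85285040-85286535. The first 150 coding bases of one end and the 143 bases of exon 15 of the other, which follow the same shared exon 14, are shown with in-frame cysteine codons in capitals.
Fbln1-202 exon 15: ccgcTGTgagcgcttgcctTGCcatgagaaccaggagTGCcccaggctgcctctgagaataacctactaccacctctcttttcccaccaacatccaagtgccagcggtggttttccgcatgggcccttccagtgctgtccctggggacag
Fbln1-201 exon 15: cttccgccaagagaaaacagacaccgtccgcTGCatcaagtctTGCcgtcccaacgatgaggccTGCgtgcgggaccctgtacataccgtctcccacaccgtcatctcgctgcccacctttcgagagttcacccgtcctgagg

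Each stretch holds 3 cysteine codons, and these are all the cysteine codons of either end, over 352 coding bases in Fbln1-202 and 412 in Fbln1-201. Exon 15 of Fbln1-202 measured 94.7, 101 and 115 RPKM at PND2 and 216, 173 and 235 RPKM at 4 months. Exon 16 of Fbln1-201 measured 57.9, 69.3 and 85.7 RPKM at PND2 and 463, 368 and 508 RPKM at 4 months. Both exons had higher values in every adult library than in any PND2 library, by 2.01-fold in the mean for the first and 6.29-fold for the second. The adult means of exons 15 and 17 of Fbln1-201 were 5.81-fold and 6.11-fold those of PND2.

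Relative to the rest of Fbln1, the log2 change of the Fbln1-202 end was -0.89 (limma, adjusted p = 0.0340, and 0.0143 with voom weights). The call was lost in 4 of the 6 fits that left out 1 library, which were, with their adjusted p, those without PND2 replicate 2 (0.181), without 4 months replicate 1 (0.210), without 4 months replicate 2 (0.0600) and without 4 months replicate 3 (0.159). Exon 16 of Fbln1-201 had a relative log2 change of 0.86, with an adjusted p = 0.0461 in limma and 0.0774 with voom weights, and was not called. Exon 17 had 0.80 (0.0884 and 0.0472) and exon 15 had 0.74 (0.160 and 0.197), so neither passed both fits. Exons 15 and 16 of Fbln1-201, without exon 17, were set against exon 15 of Fbln1-202. They made up 38.8, 43.0 and 42.8% of the combined RPKM at PND2 and 68.6, 68.0 and 68.1% at 4 months. Exon 17 measured 15.5, 15.8 and 16.6 RPKM at PND2 and 96.8, 87.6 and 109 RPKM at 4 months. In every library it lay below exon 15 of Fbln1-202. Which end had the higher adult level therefore depends on the exons taken.

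In Eln the called exon was exon 1 of Eln-202, an interval of 2528 bases that is annotated as a retained intron (minus strand, chr5:134744726-134747253). It overlaps the first coding exon of Eln and the region shared with Gm43278. The 90 bases of exon 1 of Eln-203 lie within it and measured 8690 ± 2788 RPKM at PND2 and 559 ± 173 at 4 months. Reads of the interval thus include first-exon reads, and its intronic part was not measured apart. The log2 change was -3.96 for these 90 bases and -2.22 for the whole interval. The fall of the whole interval therefore cannot be read as a fall of its intronic part. The whole interval measured 274, 499 and 321 RPKM at PND2 and 78.3, 84.1 and 66.4 RPKM at 4 months, below the gene as a whole in every library. Its log2 change relative to the rest of Eln was 1.55 (limma, adjusted p = 0.00139, and 0.00458 with voom weights). The call was lost without PND2 replicate 3 (adjusted p = 0.0647) and without 4 months replicate 2 (adjusted p = 0.0848).

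Around the 10 members, 50 further genes of the pathway were taken in 4 lists. Of these, 48 passed the filter on low values, 21 were called higher at 4 months, 11 lower and 16 were not called. Their median log2 fold change was 0.25, against -0.14 for all genes tested and -0.95 for the members. Among all genes tested, 14.7% were called higher and 21.1% lower, which also stands beside the counts of each list below. The number of pathway calls depended on the test, with 9 higher and 6 lower by the per-gene unequal-variance test. Of all 25903 genes, that test called 1466 higher and 1942 lower.

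**Figure D5:**
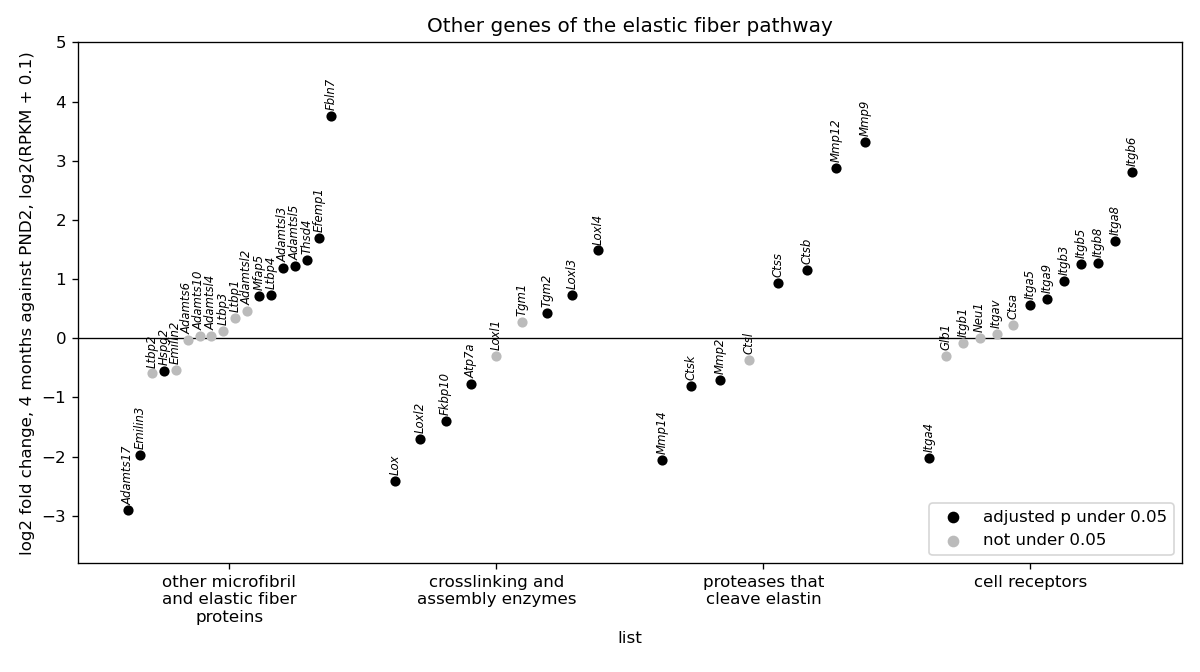
Log2 fold change of 48 further pathway genes, 4 months against PND2, on the log2(RPKM + 0.1) scale, in 4 lists ordered by value. Black points have an adjusted p under 0.05. Lox at -2.41 and Adamts17 at -2.91 lie lowest in their lists, and Fbln7 lies highest of all at 3.76.

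Of 18 other proteins of microfibrils and elastic fibers, 7 were called higher, 3 lower and 8 neither, with a median of 0.24. Fbln7, a further fibulin, measured 0.755, 0.944 and 0.879 RPKM at PND2 and 14.7, 10.9 and 13.2 RPKM at 4 months. It rose by 3.76 on the log2 scale (adjusted p = 3.49e-05). Adamts17, a protease of the family that acts on microfibrils, fell from 3.80 ± 0.769 to 0.418 ± 0.0986 RPKM (log2 fold change -2.91, adjusted p = 0.000401).

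Of 9 genes for crosslinking and assembly, 3 were called higher, 4 lower and 2 neither, with a median of -0.30. Lox, the lysyl oxidase that crosslinks elastin and collagen, measured 295, 294 and 245 RPKM at PND2 and 59.4, 45.3 and 52.9 RPKM at 4 months. The ages did not overlap, and the log2 fold change was -2.41 (adjusted p = 4.65e-05).

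Of 10 proteases that can cleave elastin, 8 were tested, and 4 were called higher, 3 lower and 1 neither, with a median of 0.29. Mmp9 rose from 0.321 ± 0.250 to 3.76 ± 0.942 RPKM (log2 fold change 3.32, adjusted p = 0.00146). Mmp12, the macrophage elastase, rose from 0.106 ± 0.0728 to 1.38 ± 0.388 RPKM (log2 fold change 2.88, adjusted p = 0.00180). Both stayed at low levels, whereas Mmp14, a membrane-bound protease, fell from 180 ± 21.5 to 43.4 ± 5.58 RPKM (log2 fold change -2.05, adjusted p = 8.97e-05). Summed RPKM of 8 macrophage markers were 269 to 299 at PND2 and 913 to 967 at 4 months, and 6 of the 8 were called higher and 1 lower. Their part in the protease levels was not tested.

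Of 13 genes for receptors of elastin and microfibrils, 7 were called higher, 1 lower and 5 neither, with a median of 0.56. Itga4, an integrin alpha subunit, fell from 15.8 ± 4.87 to 3.74 ± 0.664 RPKM (log2 fold change -2.02, adjusted p = 0.00116). Itgb6, an integrin beta subunit of epithelial cells, rose from 0.0302 ± 0.0141 to 0.841 ± 0.269 RPKM (log2 fold change 2.81, adjusted p = 0.00145), which is a low level at both ages.

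Markers of the cell types that a dissected valve can hold also differed between the ages. The shares over all genes tested were 14.7% called higher and 21.1% called lower. Summed RPKM of 10 smooth muscle markers, led by Acta2, were 7536 to 8707 at PND2 and 17028 to 28156 at 4 months, and 8 of them were called higher. These sums moved opposite to Eln, as did those of the adipocyte, macrophage, cartilage, and fibroblast and valve interstitial lists. Only those of the cardiomyocyte and endothelial lists below moved in the same direction as Eln. For 10 cardiomyocyte markers, led by Myh6, the sums were 12177 to 14555 and then 4671 to 8502, with 5 called lower, and for 8 adipocyte markers, led by Cfd, 64.6 to 149 and then 329 to 1439, with 6 called higher. Markers of fibroblasts and valve interstitial cells, led by Dcn, summed to 6591 to 7227 and 8095 to 10204, with 3 of 10 called higher and 5 lower. The 8 endothelial markers, led by Pecam1, were all called lower, with sums of 425 to 576 and 240 to 257. Cartilage markers, led by Comp, summed to 94.7 to 204 and 339 to 1236, with 3 of 7 tested called higher and 2 lower. The macrophage list was led by Lyz2. All 10 markers of fibroblasts and valve interstitial cells were read in every library. Of the other lists, the adipocyte markers Lep, Cidec and Retn were at 0 in all 3 PND2 libraries and the cartilage marker Matn1 in all 3 libraries at 4 months. Their part in the levels of the elastic fiber genes was not tested.

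For likeness across the 6 libraries, 15063 genes with a mean of at least 5 RPKM at either age were ordered by Pearson's r of log2(RPKM + 0.1). The genes most like Eln were Gm3264, Zcchc3, Gm16580, its overlapping antisense gene Gm43278 and Ccdc8, with r from 0.999 to 1.000. Those most like Fbn1 were Dhx33, Ptk2, Obsl1, Tpsb2 and Xpo6, with r from 0.998 to 0.999. Only 6 points of 2 ages enter each r, so it mostly follows the difference between the ages.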

How the data were processed

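Total RNA from pooled aortic valves was made into stranded TruSeq libraries. After trimming, the authors mapped reads to mm10 using TopHat2 2.1.0 and counted Ensembl features using easyRNASeq (their R was 3.2.2). They deposited RPKM of genes and of exons. Multiplying them by length and library total gave whole reads for 100% of values above 0 (tolerance 0.01 reads). Whether totals count reads or pairs is not stated.

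The 25903 genes that reached 0.1 RPKM in 3 libraries were fitted by limma 3.58.1 (R 4.3.3), using log2(RPKM + 0.1), a mean-variance trend and 2-sided tests with Benjamini-Hochberg adjustment. The exon fit used diffSplice where 3 libraries reached 1 RPKM. Shares were compared by exact permutation tests. Transcript annotation and sequences came from GENCODE M21 (GRCm38). Software also included data.table (version 1.17.8), Python 3.11.15, numpy 2.4.6, pandas 2.3.3 and matplotlib 3.10.9. The tests were also run on simulated reads, with the same spread set for every gene and exons drawn independently. In these data the spread differs between genes and annotated exons share reads, so the simulation does not match them there.

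The members and lists were chosen with earlier results of these data known. Named were all members, pathway genes called with a fold over 4, the 5 genes most like Eln and Fbn1, the highest gene of each marker list, and exons called in both fits. Alternatives were pseudocounts of 1 and 0.01, other filters, no trend, median scaling, a per-gene unequal-variance test (the kind of test the study used, without its read minimum, floor and threshold), voom on recovered reads, a replicate block, and each library left out.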

Additional observations from a re-analysis of the deposited data

How the results depend on the processing

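Under 15 alternatives the count of members called higher stayed at 1 and that of members called lower at 4 to 6. The per-gene unequal-variance test called 3408 genes against 9273 by limma, and 9 pathway genes higher and 6 lower. The log2 fold change of Mfap4 was -0.11 without PND2 replicate 1, -0.04 without 4 months replicate 1 and -0.01 without 4 months replicate 3, and reached 0.23 without 4 months replicate 2, and it was not called in any of these. Counted in reads, the difference in the Eln share was -42.6 percentage points, and leaving out single libraries gave -49.8 to -46.2. Of the members' exons 7 were called by diffSplice on RPKM, 4 with voom, 4 at an RPKM of at least 5, and 3 to 9 with 1 library left out. With a replicate block it was 2, and 7167 genes were called. The same 7 members were called with the block, whereas the Fbln1 and Eln exons lost their calls (adjusted p = 0.137 and 0.0624). Deviations of libraries with the same number had correlations of 0.0439, -0.0608 and -0.160 across genes, and 0 libraries correlated best with their own number, so the numbers were not taken as pairs. Exon calls are limited by 3 libraries per age, and the adult Fbn2 level by 106 to 456 reads.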
